A study of Mus musculus with 15 samples.

Results

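T-bet and genes of effector lymphocytes were examined by name in RNA-sequencing data of mouse T cell leukemia lines. The genes were *Tbx21*, *Eomes*, *Gzma*, *Gzmb*, *Prf1*, *Nkg7*, *Ifng*, *Klrd1*, *Ctla4* and *Fasl*, and every row of the deposited table with 1 of these 10 symbols was taken. They were chosen by name after CPM values of these lines had been seen, and which values led to the choice is not recorded. The table lists 12545 genes, among them 5 of the 10, which are *Tbx21*, *Gzma*, *Prf1*, *Nkg7* and *Ctla4*. *Eomes*, *Gzmb*, *Ifng*, *Klrd1* and *Fasl* are not listed in the table analysed here. The 15 lines, with 1 library each, were cultured from thymic leukemias of FVB/NJ mice and left untreated. Of these, 8 came from mice of the genotype E2a-/-LefF/F LckCre+ (called DKO) and 7 from E2a-/- mice (lines named SKO), so both groups lack *E2a*. In DKO mice the floxed *Lef1* alleles are removed by Cre under the T lineage promoter of *Lck*, before transformation. The comparison of the groups asks how leukemias that arose without LEF1 differ from those that arose with it.

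T-bet, the product of *Tbx21*, is a T-box transcription factor that directs type 1 differentiation of T cells and, with the related factor EOMES, the maturation of natural killer (NK) cells and cytotoxic T cells. In effector cells these factors are known to act on the genes of interferon-gamma (*Ifng*) and of the cytotoxic granule, in which perforin (*Prf1*) forms pores and granzymes (*Gzma*, *Gzmb*) are the proteases delivered through them. NKG7 is a membrane protein of such granules, the CD94 chain encoded by *Klrd1* pairs with NK receptors, FAS ligand (*Fasl*) triggers death receptors, and CTLA-4 is an inhibitory receptor of activated T cells.

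Values are in CPM, which scales the reads of a gene to the total assigned to genes in that line. Between 4847970 and 21681586 reads per line were on listed genes, with the fewest in DKO79.9, and 3 reads correspond to between 0.138 CPM (SKO95) and 0.618 CPM (DKO79.9). These limits cover counting error only, and values below them were not distinguished from 0. All 10 T lineage markers examined, including *Cd3e*, *Thy1* and *Lck*, are listed, and their summed level was 3255 to 5614 CPM over DKO lines and 2406 to 5451 CPM over *E2a-/-* lines. Of 8 NK and innate lymphoid markers only *Klrb1c* is listed, at 0 to 1.37 CPM among DKO and 0 to 0.276 CPM among *E2a-/-* lines, and 0 of 7 B lineage and 0 of 5 erythroid markers are listed. The 3 listed of 8 myeloid markers summed to 10.6 to 18.9 CPM among DKO and 8.99 to 16.7 CPM among *E2a-/-* lines, and the 3 listed of 6 stromal markers to 93.5 to 1113 CPM and 56.3 to 580.2 CPM. In bulk RNA, fewer cells of a type and less RNA per cell cannot be told apart.

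The targeted gene, *Lef1*, was at 103 to 210 CPM in DKO lines (median 128) and at 59.0 to 1558 CPM in *E2a-/-* lines (median 933). The lowest value of all 15 lines was that of the library labelled SKO132, an *E2a-/-* line, and the other *E2a-/-* lines were at 668 CPM or higher. The genotype of SKO132 cannot be read from 1 value per gene, so a result that this line moves markedly is given with and without it.

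The stretch before the transcription start is shown for *Tbx21*, the gene that separated the groups most, and for *Gzma*, the gene with the highest level. Each is the 250 bases upstream of the RefSeq start in GRCm38.p6, read 5′ to 3′ on the strand of the gene, at chr11:97115332-97115581 (minus strand) for *Tbx21* and chr13:113100982-113101231 (minus strand) for *Gzma*. Capitals mark the E-box CAGGTG, the kind of site that E2A proteins bind, or its reverse complement CACCTG.
Tbx21: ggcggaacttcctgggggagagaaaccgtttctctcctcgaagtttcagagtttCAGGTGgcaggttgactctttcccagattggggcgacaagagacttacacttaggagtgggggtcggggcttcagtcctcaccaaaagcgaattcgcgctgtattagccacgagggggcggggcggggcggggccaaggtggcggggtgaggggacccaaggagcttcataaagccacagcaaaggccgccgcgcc
Gzma: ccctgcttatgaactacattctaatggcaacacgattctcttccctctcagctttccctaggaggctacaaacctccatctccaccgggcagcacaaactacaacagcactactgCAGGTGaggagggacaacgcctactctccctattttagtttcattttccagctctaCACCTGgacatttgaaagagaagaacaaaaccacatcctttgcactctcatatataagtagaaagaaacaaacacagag
The *Tbx21* stretch holds this E-box at 196 to 191 bases before the start, and the *Gzma* stretch holds it at 135 to 130 and, reversed, at 79 to 74 bases. On either strand the E-box CAGGTG occurs in 17.2% of 32851 such windows of all genes. The stretches of *Prf1* and *Ctla4* hold it once each, at 25 to 20 and 19 to 14 bases before the start, and *Prf1* also holds the E-box CAGCTG (13.0% of windows) at 204 to 199 bases. That of *Nkg7* holds the T-box half-site GGTGTGA, which shares the letters GGTG with the E-box CAGGTG and is found in 3.33% of windows, at 13 to 7 bases. The cores of TCF and LEF sites, CTTTGA (13.8% of windows) and CTTTGT (16.5%), are in none of the 5 stretches on either strand. A match or its lack describes these letters only.

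*Tbx21* (ENSMUSG00000001444), listed on the minus strand of chromosome 11 from 96959385 to 96976645, was at 7.71 to 11.6 CPM in the 8 DKO lines, with a median of 9.42. In the 7 *E2a-/-* lines it was at 0 to 7.94 CPM, with a median of 0.933. The DKO lines were close to each other, with a coefficient of variation of 16.5%, while the *E2a-/-* lines held 1 high line, SKO132, at 7.94 CPM, and 6 low ones at 2.28 CPM or less. SKO132 lay above DKO548 (7.71 CPM) and DKOTu3 (7.78 CPM), so the groups overlapped through this line alone. Among the low lines, SKO156.6 was at 2.28, SKO186.5 at 0.996, SKO137.1 at 0.933 and SKO163.5 at 0.753 CPM. SKO115.2 had 1 *Tbx21* read in the whole library and SKO95 none, which allows up to 0.138 CPM in that line.

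The mean of the DKO lines was 9.69 ± 1.59 CPM (SD, n = 8) and that of the *E2a-/-* lines 1.85 ± 2.79 CPM (SD, n = 7), a log2 fold change (log2FC) of 2.30 on the log2(CPM + 1) scale (standard error 0.37, 95% interval 1.51 to 3.10). The adjusted p was 0.0208 from limma over all 12545 genes, above the threshold of 0.01, at rank 9 of all genes. Without SKO132 the mean of the *E2a-/-* lines was 0.835 ± 0.829 CPM (SD, n = 6), the log2FC 2.65 (standard error 0.25), and the adjusted p 0.000106 from limma, at rank 3. Each DKO line was then above each *E2a-/-* line, as for 0.279% of all genes. Over 24 alternative settings the log2FC of *Tbx21* lay between 1.81 and 3.54 and the adjusted p between 0.000106 and 0.284 (limma, edgeR or DESeq2), and the threshold was passed in 1, the fit without SKO132. Because the genes were chosen with results of these lines known, this difference is a description.

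**Figure D1:**
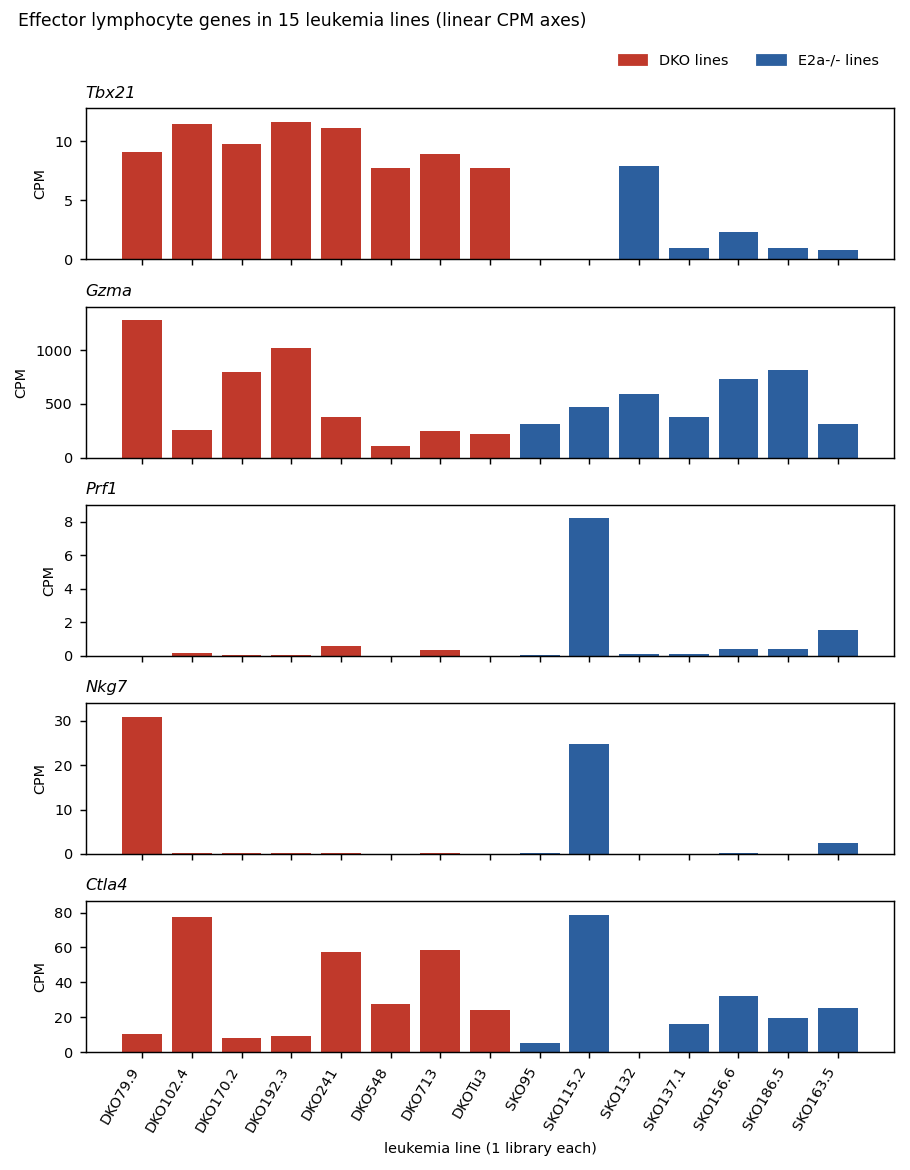
Level of the 5 listed genes in each of the 15 leukemia lines, in CPM on linear axes that start at 0 and differ between panels, with 1 bar per line (red, DKO; blue, E2a-/-). *Tbx21* is at 7.71 to 11.6 CPM in each DKO line and in 1 *E2a-/-* line, SKO132, whereas *Nkg7* is high in 1 line of each group and *Prf1* in SKO115.2.

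The lines with the most *Tbx21* were those with little *Lef1*. At 59.0 CPM of *Lef1*, SKO132 had *Tbx21* in the range of the DKO lines, and the 6 *E2a-/-* lines with 668 to 1558 CPM of *Lef1* had the 6 lowest *Tbx21* levels. Over the 15 lines Spearman's rho of *Tbx21* with *Lef1* was -0.61, which placed *Lef1* at rank 11219 of 11566 genes ordered from the most to the least similar. The points fall into separate groups of lines, so this value describes the separation and not a graded relation, and all values of a line come from the same library. The genes most like *Tbx21* over the 15 lines were *Polr1c* (rho 0.90), a subunit of RNA polymerases I and III, *Cdr2l* (0.88), *Cdkn1a* (0.87), which encodes the cell cycle inhibitor p21, *2310030G06Rik* (0.87) and *Bpifb5* (0.87).

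**Figure D2:**
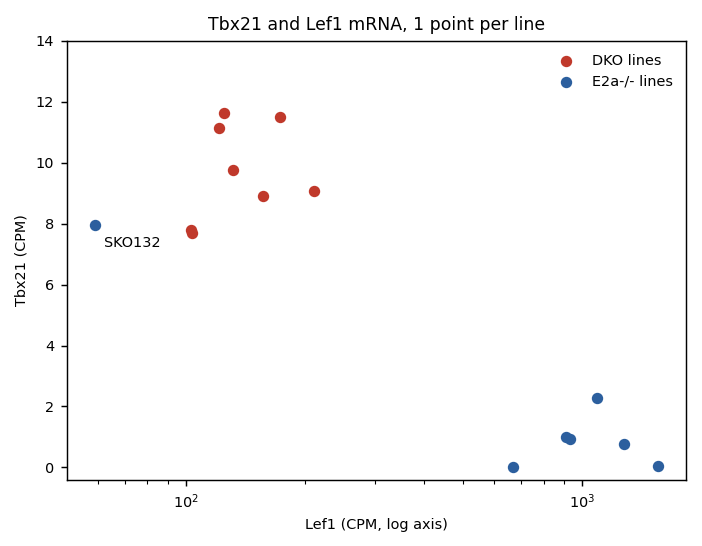
*Tbx21* (vertical, CPM, linear) against *Lef1* (horizontal, CPM, log axis), 1 point per line (red, DKO; blue, E2a-/-). SKO132 lies at 59.0 CPM of *Lef1* and 7.94 CPM of *Tbx21*, beside the DKO lines and apart from the other 6 *E2a-/-* lines.

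*Gzma* (ENSMUSG00000023132), listed on the minus strand of chromosome 13 from 113884033 to 113891187, was read in every line. Its level was 107 to 1280 CPM in DKO lines (median 317) and 311 to 816 CPM in *E2a-/-* lines (median 467). The *E2a-/-* lines thus all fell inside the range of the DKO lines, which differed among themselves by 11.9-fold, against 2.62-fold among *E2a-/-* lines. DKO79.9 (1280 CPM), DKO192.3 (1020 CPM) and DKO170.2 (799.7 CPM) were high, and the remaining 5 had 382 CPM or less. Means were 539 ± 435 CPM (SD, n = 8) and 517 ± 202 CPM (SD, n = 7), a difference well within the spread (log2FC -0.29, 95% interval -1.30 to 0.72, limma adjusted p = 0.867). The sign depended on the test, since edgeR and DESeq2 on recovered reads gave log2FC values of 0.06 to 0.083. Scaled to the gene length given in the table, *Gzma* had the highest mean level of the 5 genes, 313 CPM per kb in DKO and 301 CPM per kb in *E2a-/-* lines, where *Tbx21* had 3.89 and 0.744 CPM per kb. For *Nkg7* this length exceeds the listed span of the gene, so it is not a transcript length. Spearman's rho of *Gzma* with *Tbx21* was 0.22 over the 15 lines, 0.67 within the 8 DKO lines, 0.75 within the 7 *E2a-/-* lines and 0.77 within these without SKO132. The values within a genotype rest on few lines, and a relation was not tested. *Tbx21* had 33 or fewer reads in each *E2a-/-* line except SKO132. The *E2a-/-* lines highest in *Gzma*, SKO186.5 and SKO156.6, were also the most alike pair of lines over all genes. Most like *Gzma* were *Ctsd*, which encodes the lysosomal protease cathepsin D, *Flot1* and *Aif1l* (rho 0.918 each), followed by *Stard10* (0.889) and *Ldb1* (0.882).

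*Prf1* (ENSMUSG00000037202), listed on the plus strand of chromosome 10 from 60760584 to 60767011, was at or near 0 in most lines. DKO lines ranged from 0 to 0.584 CPM (median 0.0553) and *E2a-/-* lines from 0.0461 to 8.19 CPM (median 0.414). SKO115.2 was high with 158 reads, SKO163.5 followed at 1.51 CPM with 28 reads, and no other line had more than 11 reads. The groups overlapped, with more than 3 reads in 2 of 8 DKO and 4 of 7 *E2a-/-* lines. Means were 0.147 ± 0.210 CPM (SD, n = 8) and 1.55 ± 2.97 CPM (SD, n = 7), with a log2FC of -0.67 (standard error 0.39, limma adjusted p = 0.576), and the *E2a-/-* mean rests mainly on SKO115.2. Without SKO115.2 the log2FC was -0.27, and on recovered reads it was -3.22 and -3.27 with the tests of edgeR and -3.34 with DESeq2, where the lowest adjusted p was 0.0848. The genes most like *Prf1* were *Ptpn1* (rho 0.803), *Eri1*, *Kcnj10* and *Gm11033* (0.799 each) and *Mlph* (0.781), although ranks of *Prf1* among lines with few reads are set by counting error.

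*Nkg7* (ENSMUSG00000004612), on the plus strand of chromosome 7 from 50692443 to 50693616 in the table, also had more than 4 reads in few lines. It was at 0 to 30.9 CPM in DKO lines (median 0.134) and at 0 to 24.7 CPM in *E2a-/-* lines (median 0.138). DKO79.9 (30.9 CPM, 150 reads) and SKO115.2 (24.7 CPM, 476 reads) stood far above the rest, SKO163.5 had 2.47 CPM, and the 12 other lines were at 0.193 CPM or lower with no more than 4 reads each. Group means of 3.96 ± 10.9 CPM (SD, n = 8) and 3.95 ± 9.18 CPM (SD, n = 7) were thus each set by 1 line (log2FC -0.26, 95% interval -2.02 to 1.49, limma adjusted p = 0.936). Without SKO115.2 the log2FC was 0.35 (limma adjusted p = 0.903), without DKO79.9 it was -0.87, and with DESeq2 it was -2.10. *Tbx21* was at 9.07 CPM in DKO79.9 and at 0.0518 CPM in SKO115.2, so the highest lines for *Nkg7* differed widely in *Tbx21*. *Slco4a1* (rho 0.935), *Clec2d* (0.918), *Gabpb1* (0.906), *Plekhg2* (0.892) and *Dst* (0.888) were most like *Nkg7*, although its ranks among the 12 lines with no more than 4 reads are set by counting error.

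*Ctla4* (ENSMUSG00000026011), on the plus strand of chromosome 1 from 60943844 to 60972676 in the table, was at 7.91 to 77.2 CPM in DKO lines (median 25.9) and at 0 to 78.7 CPM in *E2a-/-* lines (median 19.7). Both groups held high and low lines. SKO115.2 (78.7 CPM) and DKO102.4 (77.2 CPM) were highest, DKO713 and DKO241 had 58.5 and 57.4 CPM, and SKO132 alone had no read. Means were 34.1 ± 26.7 CPM (SD, n = 8) and 25.3 ± 26.0 CPM (SD, n = 7), with a log2FC of 0.82 (95% interval -0.87 to 2.51, limma adjusted p = 0.750). Without SKO132 the log2FC was 0.17, so most of this difference came from the line at 0. Its nearest genes were *Ptpn22* (rho 0.846), a phosphatase that limits T cell receptor signaling, *Trmt6* (0.843), *Prim2* (0.836), *Dusp22* (0.825) and *Dpp4* (0.818), which encodes CD26.

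In all, 0 of the 5 listed genes were called by limma at an adjusted p of 0.01, against 0.0478% of all genes, and *Tbx21* alone had an unadjusted p under 0.05, as did 10.2% of all genes. Without SKO132, *Tbx21* passed, beside 0.136% of all genes, and with all lines it passed an adjusted p of 0.05, beside 0.151%. Each of edgeR's quasi-likelihood test (0.00797% of all genes called), edgeR's likelihood ratio test (1.24%) and DESeq2 (1.41%) called 0 of the 5. With all lines, the groups overlapped for each of the 5 genes, while for 0.175% of all genes the ranges were separate. Over the 10 pairs the median Spearman's rho across the 15 lines was 0.164, from -0.40 for *Gzma* with *Ctla4* to 0.56 for *Prf1* with *Ctla4*, and the values of a line share its library and depth. Within the 8 DKO lines the pairs ranged from -0.52 (*Gzma* with *Ctla4*) to 0.69 (*Gzma* with *Nkg7*). Within the 7 *E2a-/-* lines they ranged from -0.75 (*Tbx21* with *Nkg7*) to 0.86 (*Prf1* with *Ctla4*), with 0.71 for *Nkg7* with *Ctla4*, and without SKO132 these values were -0.60, 0.83 and 0.54. In pairs with *Prf1* or *Nkg7*, ranks among lines with few reads are set by counting error.

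To place the 5 genes among others of effector lymphocytes, 119 partner genes in 5 lists were examined, of which 70 are listed. These are 28 of 32 regulators and partner factors of T-bet and EOMES, 8 of 18 type 1 cytokines, chemokines and their receptors, 17 of 24 genes of the cytotoxic granule and death ligands, 4 of 25 NK receptors and adaptors, and 13 of 20 checkpoint and costimulatory receptors and ligands. Among genes not listed are *Gzmc*, *Gzmk*, *Ccl3*, *Ccl4*, *Ccl5*, *Klrk1*, *Ncr1* and *Tyrobp*, so the chemokines, most granzymes and most receptors of NK cells are missing together with *Eomes*, *Gzmb*, *Ifng*, *Klrd1* and *Fasl*. How genes were selected for the table is not stated.

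The high lines were the same for many of these genes. Of the 75 listed effector and partner genes, 26 (34.7%) had their highest value in SKO115.2, which was highest for 9.53% of all genes. DKO79.9 was highest for 14 (18.7%, against 9.37% of all genes) and DKO241 for 0. Counting only genes that averaged 1 CPM or more, SKO115.2 was highest for 23 of 66 and DKO79.9 for 14 of 66. In SKO115.2 these included 6 of the 8 cytokine and receptor genes, 8 of the 28 regulators and 2 of the 4 NK receptor genes. For 16 of the 75 genes (21.3%) SKO115.2 was first and SKO163.5 second, as for 3.60% of all genes, *Prf1* among them. Over all genes SKO115.2 and SKO163.5 were the second most alike pair of lines (Spearman's rho 0.969), so their shared high values may not be separate cases.

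Several genes of this kind, picked after their values were seen, show the pattern, while others of the same lists go the other way. *Runx3*, a partner factor of T-bet in cytotoxic cells, was at 105 CPM in SKO115.2 and 63.4 CPM in SKO163.5, and at 9.70 CPM or lower in the 13 other lines. *Tox2*, an HMG-box factor that promotes *Tbx21* expression in NK cells, was at 252 and 147 CPM in the same lines and at 4.42 CPM or lower elsewhere. *Cx3cr1*, a chemokine receptor of effector cells, was at 10.8 and 4.95 CPM there and at 0.206 CPM or lower elsewhere. In the other direction, *Gzmm* had its lowest value of all lines in SKO115.2, at 0.466 CPM, close to SKO186.5 at 0.474 CPM. As 1 read is 0.0518 CPM in SKO115.2, this rank rests on few reads. *Irf8* was at 1.45 CPM in SKO115.2 and 1.13 CPM in SKO163.5, and at 6.80 CPM or higher in the 13 other lines. In both lines *Tbx21* itself was low, at 0.0518 and 0.753 CPM. The summed T lineage markers of SKO115.2 were the highest among *E2a-/-* lines (5451 CPM), *Klrb1c* had no read, and the myeloid sum was 15.3 CPM, inside the range of the other lines. In DKO79.9 the highest values included those of *Gzma*, *Nkg7* and *Srgn*, the proteoglycan core of granules (316 CPM). DKO79.9 is also the line with the fewest reads and had a stromal marker sum of 825.9 CPM, and the part of these in its values was not tested.

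**Figure D3:**
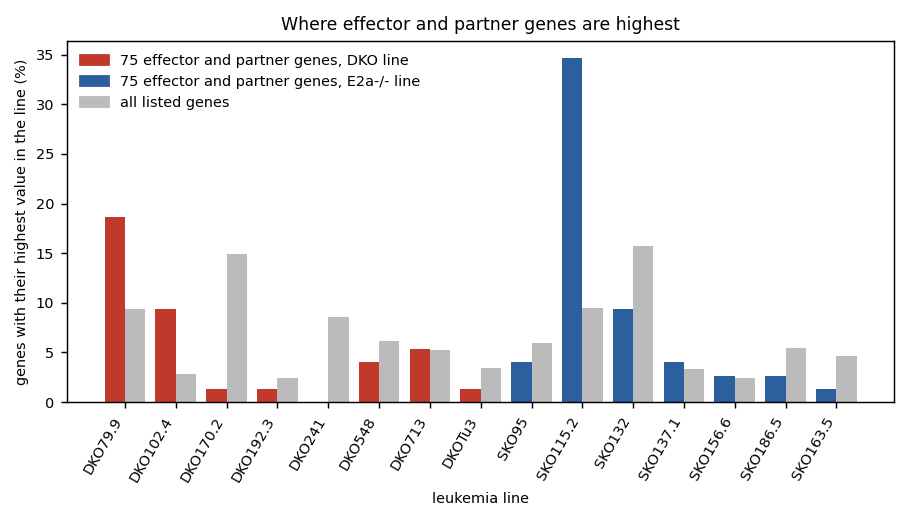
Share of genes that have their highest CPM in each line, in percent, for the 75 listed effector and partner genes (coloured; red, DKO; blue, E2a-/-) and for all 12545 genes (grey). SKO115.2 holds 34.7% of the effector and partner genes against 9.53% of all genes, and DKO79.9 holds 18.7% against 9.37%.

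Between the genotypes, limma called 0 of the 70 partner genes at an adjusted p of 0.01, with SKO132 (0.0478% of all genes called) or without it (0.136%). With an unadjusted p under 0.05, 3 were higher and 10 lower in DKO lines, 18.6% of the 70 in all, where 4.33% of all genes were higher and 5.83% lower. The log2FC was above 0 for 24 and below 0 for 46, with a median of -0.21, where the median over all genes was -0.019. Leaving out SKO132 gave a median of -0.42 for the 70 and of -0.0078 for all genes. Without SKO132 the list medians were -0.42 for regulators, -0.64 for cytokines and receptors, -0.60 for granule genes, -0.60 for NK receptors and -0.075 for checkpoint genes, the last with a changed sign. The likelihood ratio test of edgeR (1.24% of all genes called) and DESeq2 (1.41%) each called 1 of the 70 partner genes, *Tox2*, a share near that of all genes. The log2FC values of *Tox2* were -8.23 and -8.30, and edgeR's quasi-likelihood test called 0 partner genes (0.00797% of all genes).

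The regulators of T-bet and EOMES had a median log2FC of -0.28. At an unadjusted p under 0.05, 2 of the 28 listed were higher and 7 lower in DKO lines, where 4.33% of all genes were higher and 5.83% lower. The higher ones were *Stat5a*, at 135 ± 19.0 CPM in DKO against 103 ± 18.1 CPM in *E2a-/-* lines (log2FC 0.39, limma adjusted p = 0.268), and *Stat5b*, at 223 ± 33.3 CPM against 178 ± 25.4 CPM (log2FC 0.32, limma adjusted p = 0.344), cytokine signal transducers named after their values were seen. *Tox2* was at 0 to 0.489 CPM among DKO and 0 to 252 CPM among *E2a-/-* lines (log2FC -2.81, limma adjusted p = 0.371). *Zbtb16*, which encodes PLZF, the factor of innate-like T cells, was at 0 to 15.5 CPM and 0 to 70.7 CPM (log2FC -2.76, limma adjusted p = 0.268). The largest positive log2FC values were those of *Irf8*, at 32.7 ± 22.8 CPM against 16.4 ± 14.2 CPM (log2FC 1.26, limma adjusted p = 0.551), and of *Bcl6*, a repressor that opposes T-bet, at 22.4 ± 8.60 CPM against 17.2 ± 13.6 CPM (log2FC 0.52, limma adjusted p = 0.671, and 0.79 without SKO132, where the limma adjusted p was 0.353). Of the genes that carry the interleukin-12 signal, which is known to induce *Tbx21* and is named here after the values were seen, the receptor chain *Il12rb1* averaged 8.56 ± 16.9 CPM (SD, n = 8) over DKO lines and 42.3 ± 41.2 CPM (SD, n = 7) over *E2a-/-* lines (log2FC -2.60, limma adjusted p = 0.268). The DKO mean was raised by DKO79.9, at 49.9 CPM, and the DKO median was 1.66 CPM. Without SKO132 the log2FC of *Il12rb1* was -3.09 (limma adjusted p = 0.080). The other chain, *Il12rb2*, averaged 122 ± 81.1 CPM and 118 ± 65.9 CPM (log2FC 0.27, limma adjusted p = 0.925), and its log2FC was -0.42 without SKO132. *Stat4* was at 0.0634 ± 0.0727 CPM and 0.616 ± 0.699 CPM (log2FC -0.51, limma adjusted p = 0.420).

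The 8 cytokine and receptor genes had a median log2FC of -0.45. Against 5.83% of all genes, 1 of the 8 was lower in DKO lines at an unadjusted p under 0.05. That gene was *Cxcr6*, a chemokine receptor of effector and innate-like cells, at 0.942 ± 0.735 CPM in DKO and 4.07 ± 4.76 CPM in *E2a-/-* lines (log2FC -1.10, limma adjusted p = 0.353). *Ltb*, which encodes lymphotoxin beta, had a log2FC of -1.15 and *Il10* one of 0.55, or 0.86 without SKO132. Of the 17 granule and death ligand genes, 15 had a log2FC below 0, as did 53.7% of all genes, with a median of -0.19. An unadjusted p under 0.05 was found for 10.2% of all genes and for 2 of the 17. These were *Rab27a*, which encodes a GTPase needed for granule release, at 19.7 ± 15.1 CPM against 49.4 ± 18.0 CPM (log2FC -1.51, limma adjusted p = 0.246), and *Casp8*, the initiator caspase of death receptors, at 55.3 ± 23.8 CPM against 108 ± 49.9 CPM (log2FC -0.98, adjusted p = 0.336). *Srgn* and *Gzmm*, another granzyme, had log2FC values of 0.90 and 0.32.

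Of the NK receptor genes, *Cd96* was at 13.4 ± 15.2 CPM in DKO and 40.5 ± 44.6 CPM in *E2a-/-* lines (log2FC -1.24) and *Cd160* at 18.7 ± 18.6 and 35.9 ± 22.2 CPM (log2FC -0.91, or -1.50 without SKO132). An unadjusted p under 0.05 was found for 0 of the 4, against 10.2% of all genes. For checkpoint and costimulatory genes the median log2FC was 0.015. *Lag3*, an inhibitory receptor, was the 1 gene of the 13 with an unadjusted p under 0.05 (10.2% of all genes). It was at 1.51 ± 0.802 CPM in DKO against 0.629 ± 0.386 CPM in *E2a-/-* lines (log2FC 0.59, limma adjusted p = 0.355). *Il2ra*, which encodes CD25, varied most, at 12.4 to 1636 CPM among DKO and 0.827 to 678 CPM among *E2a-/-* lines (log2FC 2.64, standard error 1.44, limma adjusted p = 0.566). *Icos* and *Btla* had log2FC values of -1.08 and -0.93, and that of *Icos* was -1.75 without SKO132.

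**Figure D4:**
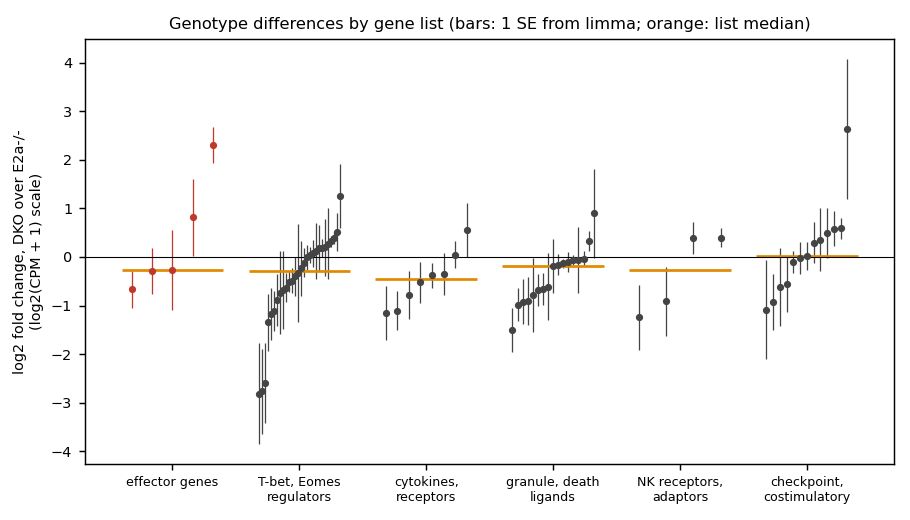
Log2 fold change of DKO over *E2a-/-* lines on the log2(CPM + 1) scale for the 5 listed effector genes (red) and the 70 partner genes in 5 lists (grey), with bars of 1 standard error from limma and the list median in orange. *Tbx21*, at 2.30, is the highest of the effector genes, and medians of the partner lists lie between -0.45 and 0.015.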

How the data were processed

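RNA from 15 lines was sequenced, and the authors trimmed reads with Trimmomatic (version 0.33), aligned them with TopHat2 (2.1.0) to mm10, counted them per gene with HTSeq (0.6.1) and scaled them with edgeR, per the labels' processing notes. The deposited values are CPM for 12545 genes, and 100% of them were whole multiples (tolerance 0.01) of 1 read in every line, so reads were recovered for count tests. Table positions are not those of GRCm38, which the methods name as mm10, and are given as listed. Lines were grouped by labelled genotype and treated as replicates, so p-values measure the spread between lines.

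The main test was limma (3.58.1, R 4.3.3) on log2(CPM + 1) with a variance trend, which understates fold changes of low genes, 2-sided, with Benjamini-Hochberg adjustment over all genes and the study's threshold of 0.01. Other settings tried were a pseudocount of 0.1 or of 2, only genes averaging 1 CPM or more, no trend, median-of-ratios scaling, edgeR (4.0.16) quasi-likelihood and likelihood ratio tests, DESeq2 (1.42.0), SKO156.6 and SKO186.5 averaged, an adjusted p of 0.05, and each line left out. Over all genes SKO156.6 and SKO186.5 were the most alike pair of lines (Spearman's rho 0.987). The genes and lists were chosen with earlier results of these data known, and the values that chose them are not recorded. Named are the 10 genes, *Lef1*, any partner gene past the threshold, the 2 partner genes per list and direction with the largest fold change at a mean of at least 1 CPM, and the 5 genes most like each listed gene by Spearman's rho at that mean. Others are said to be named after their values were seen. The tests were tested on simulated data in which 200 of 12545 genes differed 4-fold. These were drawn only from genes above a minimum mean level, which *Prf1* and *Nkg7* did not reach. Every gene was given the same variability, and no line departed from its group as SKO132 does. The share found was 65.0% in limma (1 false call), 77.0% in edgeR by quasi-likelihood (0 false calls), 80.0% by likelihood ratio (3 false calls) and 83.5% in DESeq2 (9 false calls). These shares and false calls do not carry over to the measured lines. Figures were drawn in Python (3.11.15).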

Additional observations from a re-analysis of the deposited data

Results flagged for a closer look

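The genes compared were the listed effector genes, *Lef1* and the partner genes named for the largest fold change per list and direction. Genes named after their values were seen, such as *Il12rb1* and *Stat5a*, were left out. For each gene compared, the distance from the most extreme line of a genotype to its nearest neighbour was divided by the range of that genotype. The ratio was set against Dixon's 95% critical value. For normally distributed values chance passes this in about 1 of 20 comparisons, which is 2.3 of the 46 made, and 14 passed. CPM values are skewed and lie near 0 in most lines for several of these genes, and all 14 passed at the high end. Many of the genes were also named for large fold changes, so the 2.3 does not apply to them. Whether 14 exceeds chance was not tested. SKO132 stood above the other *E2a-/-* lines for *Tbx21* at 7.94 CPM (others 0 to 2.28) and for *Bcl6* at 45.8 CPM (others 6.01 to 21.2). SKO115.2 stood above them for *Prf1* at 8.19 CPM (others 0.0461 to 1.51), *Nkg7* at 24.7 CPM (others 0 to 2.47), *Ctla4* at 78.7 CPM (others 0 to 32.4), *Ltb* at 43.2 CPM (others 2.04 to 14.7) and *Cxcr6* at 14.6 CPM (others 0.876 to 3.73). SKO186.5 did so for *Zbtb16* at 70.7 CPM (others 0 to 30.4). Among DKO lines, DKO79.9 stood above the others for *Nkg7* at 30.9 CPM (others 0 to 0.193), *Ltb* at 10.1 CPM (others 0.894 to 2.98), *Srgn* at 316 CPM (others 7.88 to 97.5), *Gzmm* at 2.88 CPM (others 0.518 to 1.53) and *Cd96* at 48.6 CPM (others 3.47 to 20.9), and DKO548 for *Cd160* at 61.1 CPM (others 3.50 to 21.2).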

How the results depend on the processing

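With limma 6 genes were called between the genotypes. The number was 1 with edgeR's quasi-likelihood test, 155 with its likelihood ratio test, 177 with DESeq2 and 19 at an adjusted p of 0.05, and 3 to 17 with each line left out (17 without SKO132, 10 without DKO79.9, and 3 without SKO137.1, SKO156.6, DKO170.2 or DKO713). Of the 5 listed effector genes 0 were called, and 1, *Tbx21*, without SKO132 and at an adjusted p of 0.05 (0 to 1 over the lines left out). Of the 70 partner genes 0 were called, and 1, *Tox2*, with the likelihood ratio test (1.24% of all genes called) and with DESeq2 (1.41%). With each line left out the log2 fold change of *Tbx21* was 2.12 to 2.65, with adjusted p from 0.000106 to 0.0632 (limma). For *Gzma* the log2 fold change of -0.29 reversed to 0.060 with the likelihood ratio test, 0.083 with the quasi-likelihood test and 0.073 with DESeq2. For *Nkg7* that of -0.26 reversed to 0.35 without SKO115.2, in a range of -0.87 (without DKO79.9) to 0.35 over the lines left out. On recovered reads that of *Nkg7* was -2.10 with DESeq2, but -0.052 with the quasi-likelihood and -0.0089 with the likelihood ratio test. The value of -0.67 for *Prf1* moved to -0.27 without SKO115.2 and to between -3.34 and -3.22 on recovered reads, and that of 0.82 for *Ctla4* lay between 0.17 and 1.29 under all settings. Lines with more than 3 reads numbered 6 for *Prf1* and 5 for *Nkg7*, and lines with more than 10 reads 3 for each. The median rho over the 10 pairs of listed genes was 0.164 and lay between 0.013 and 0.43 under 6 alternatives. The minimum mean of 1 CPM for the counts of highest lines and the *E2a-/-* pairs without SKO132 were chosen after seeing the data. The cause of these changes was not tested. At the depth of these libraries *Prf1* had 11 or fewer reads in 13 lines and *Nkg7* 4 or fewer in 12. No paired analysis was possible because line numbers are not shared between the genotypes.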
